A study of Homo sapiens with 6 samples.

Results

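Interferon-stimulated genes were examined in SKBR3 cells with and without added cortactin. The set held 44 genes, chosen by symbol as widely used interferon-induced genes. They fell in 43 of 54644 rows of the gene table, since IFITM1 and IFITM2 shared a row. SKBR3 is a human breast adenocarcinoma line with amplified ERBB2, the gene of the HER2 receptor. Both groups carried a stably integrated lentiviral vector and had been selected with puromycin. The CTTN group (3 libraries) carried pLVX-CTTN, which encodes cortactin, an actin-binding protein, and the Control group (3 libraries) carried the pLVX vector alone. The series was made to find what added CTTN changes in these cells. The labels speak of biological replicates, but nothing in them says that the 3 libraries of a group came from separate infections, so p-values measure the spread between these libraries only. Apart from the lentiviral vector, which both groups had received, the labels name no interferon or virus.

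Interferons are secreted proteins that cells release when sensors in the cytoplasm or endosome meet viral nucleic acid. Type I interferons bind the receptor IFNAR1-IFNAR2, whose kinases JAK1 and TYK2 phosphorylate STAT proteins. STAT2 and IRF9 are parts of the resulting factor, ISGF3, which binds the interferon-stimulated response element in the promoters of many genes. Many of their products block viral entry, translation or replication, and others, such as ISG15, are attached to proteins like ubiquitin. Several of these genes keep a low constant level in tumour cells that see no interferon.

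Many promoters of these genes share a sequence element. The core of the response element was searched as GAAA, any 2 bases and GAAA, on both strands and with overlapping matches counted, in the 250 bases before the gene start (RefSeq promoters, GRCh38.p14). Promoters were matched for 35 of the 44 genes, DDX58 under its symbol RIGI. The core was present in 19 of the 35 (54.3%), against 1061 of 35114 promoters of all genes (3.02%). The shorter gamma-activated site, searched as TTC, any 3 bases and GAA, a pattern that reads the same on both strands, was present in 9 of 35 (25.7%) against 2306 of 35114 (6.57%). The examples below are shown because they set promoters of well expressed genes (ISG15, IFI6, IFITM3 and BST2) beside promoters of genes with almost no reads in SKBR3 (IFIT1 and IFI44). Each is written in the direction of transcription, and capitals mark the core or its reverse complement, TTTC, any 2 bases and TTTC:
ISG15, chr1:1013364-1013419, plus strand: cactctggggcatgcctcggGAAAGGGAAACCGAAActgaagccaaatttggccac
IFI6, chr1:27672256-27672368, minus strand: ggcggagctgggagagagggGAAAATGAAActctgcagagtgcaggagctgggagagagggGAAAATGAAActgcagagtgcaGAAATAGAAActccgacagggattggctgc
IFITM3, chr11:320866-320932, minus strand: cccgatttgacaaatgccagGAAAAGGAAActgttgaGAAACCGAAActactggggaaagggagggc
BST2, chr19:17405725-17405780, minus strand: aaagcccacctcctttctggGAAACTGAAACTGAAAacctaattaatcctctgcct
IFIT1, chr10:89392487-89392549, plus strand: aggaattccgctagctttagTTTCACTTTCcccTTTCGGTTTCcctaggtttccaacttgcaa
IFI44, chr1:78649751-78649788, plus strand: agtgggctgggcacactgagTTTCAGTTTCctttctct

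The core in ISG15 and in BST2 is a pair of overlapping matches, and IFI6 holds 3 matches. Of the 10 genes with a promoter in the table that were too low to test, 7 held the core, and of the 25 tested genes 12 did. The search allowed a spacing of exactly 2 bases. The closer-spaced GAAACGAAA, present in the windows of RSAD2, OAS1 and DDX58, was therefore not counted as a match. The core thus stood before well expressed and near-silent members alike. UBE2L6, described further on, had neither pattern in its window. A match is a description of the letters and not a measured binding site.

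Depth, as the total mass that the deposited sample table gives for each library, ran from 35618400 (Control 1) to 42126200 (Control 2). The counts as deposited, already divided by a scale for each library, summed to between 35695339 and 39318390. CTTN itself had counts of 29087.8, 37144.0 and 18999.3 in the 3 CTTN libraries and 10911.6, 11227.5 and 11265.3 in the Control libraries, a log2 fold change of 1.35 ± 0.22 (SE, FDR = 0.0253, edgeR's quasi-likelihood test on all genes). CTTN library 3 thus had the least CTTN of its group. The line's markers were present at mean FPKM values (fragments per kilobase of transcript, scaled to the library's size) of 1710 for ERBB2, 1900 for KRT8, 1060 for KRT18, 2170 for KRT19 and 155 for EPCAM, while CDH1, which this line is known to lack, was at 0.117. Of 12 markers of immune, stromal, endothelial and basal cells, 6 were below 0.1. Of the other 6, edgeR called 0 (2 with an unadjusted p under 0.05, 0 by limma), and DESeq2 called 1 as higher, where it called 14.4% of all rows. Their log2 fold changes ran from -0.7 to 0.94, with a median of 0.35, and of 0.05 with CTTN library 2 alone. With a transcript length term for each library, edgeR called 1 as higher, against 9.3% of all rows, and the median was 0.26. Without CTTN library 2 there were 2 higher and 1 lower, where 48.2% of all tested rows were called. The part of other cell types in the results was not tested.

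The 3 CTTN libraries did not look alike, and this touches every comparison that follows. In genes with transcripts under 1000 nt, the median log2 deviation from the Control mean was 0.33 in CTTN library 1, 0.01 in library 2 and 0.80 in library 3. In genes of 6000 nt or more it was -0.42, -0.01 and -0.77. No Control library passed 0.07 in size in either class. CTTN libraries 1 and 3 therefore held relatively more short and fewer long transcripts, and library 2 did not. For this reason values are also given with a transcript length term for each library (length offset) and with library 2 as the only CTTN library. A CTTN group of 1 library has no spread of its own, so the fold changes with library 2 alone are given without a test. Both fits were chosen after the data had been seen, and a length-linked difference that CTTN itself produced cannot be told apart from a technical one.

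Expression of the interferon-stimulated genes ranged from a mean FPKM of 0.00163 (SAMD9L) to 94.3 (IFITM1 and IFITM2). In all, 9 of the 43 rows were at 10 FPKM or more, 13 were from 1 to under 10, 9 were from 0.1 to under 1, and 12 were under 0.1. The highest was the row of IFITM1 and IFITM2, membrane proteins that hinder viral fusion, with FPKM of 92.7, 72.3 and 116.0 in CTTN libraries 1 to 3 and 98.1, 92.4 and 93.8 in the Control libraries. That row stood at percentile 92.0 of the tested rows. Next came the related IFITM3, with 78.1 ± 21.7 FPKM in CTTN and 65.2 ± 0.608 in Control cells (SD, n = 3). These 3 genes are close copies of each other, so reads may have been split between them uncertainly. The row of IRF9 followed at 45.4 FPKM, but it also held RNF31, and IRF9's own transcripts made up 8.31% of its count. IFI6, a membrane protein with antiviral and anti-apoptotic activity, was at 26.4, ISG20, an RNA exonuclease, at 17.2, TRIM25, a ubiquitin and ISG15 ligase, at 15.8, BST2, the virion tether tetherin, at 15.6, ISG15 at 13.0 and STAT2 at 12.2.

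**Figure D1:**
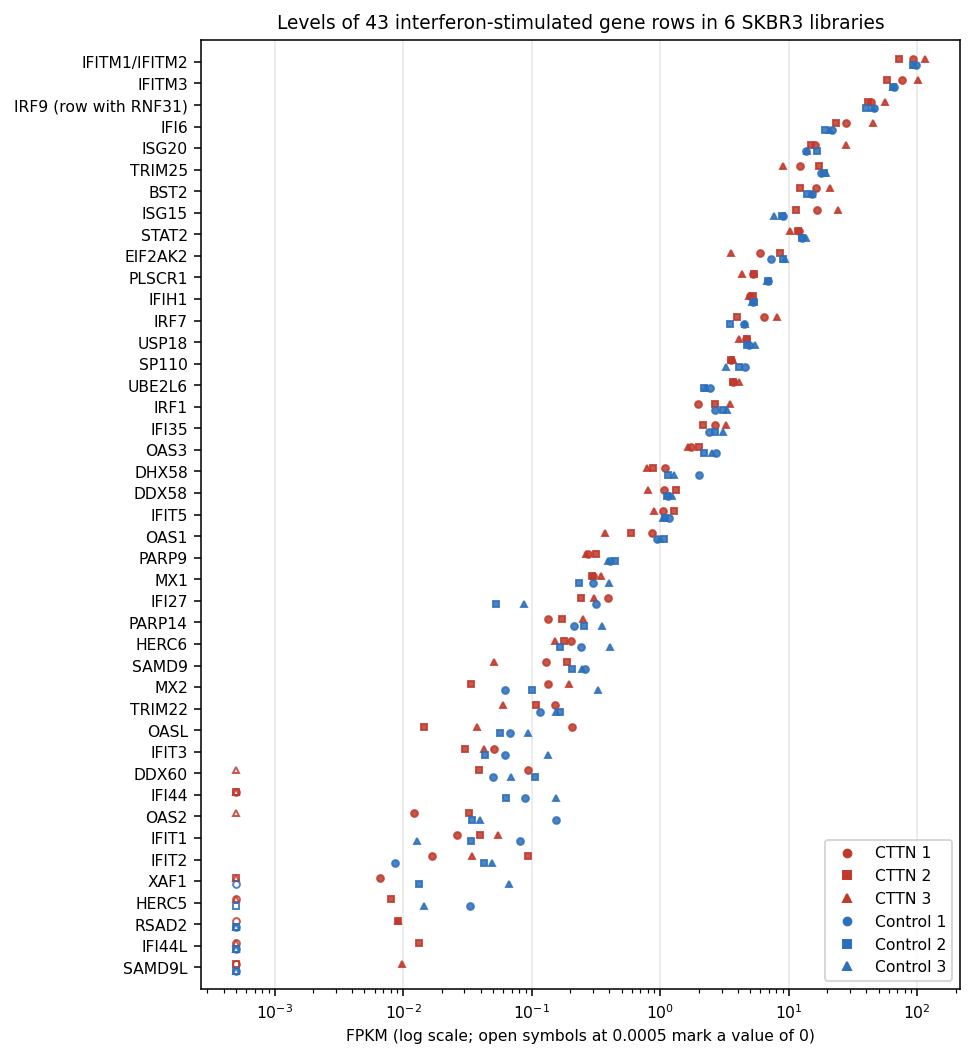
FPKM (log axis) of the 43 rows in each of the 6 libraries, red for CTTN and blue for Control, with circles, squares and triangles for libraries 1, 2 and 3. The IFITM rows lie at the top, 12 rows have a mean under 0.1, and symbols of both groups mix in most rows.

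At the other end, 13 rows were too low to test (mean scaled count under 10 over the 6 libraries): OASL, IFIT3, OAS2, IFIT1, IFIT2, RSAD2, SAMD9L, HERC5, IFI27, IFI44, IFI44L, XAF1 and DDX60. They had between 1 and 47 fragments in all 6 libraries together. Among them are genes that respond most strongly to interferon in many cell types. IFIT1, which binds foreign RNA caps, had scaled counts of 2.1, 2.9 and 5.5 in CTTN and 6.2, 2.6 and 1.0 in Control libraries. RSAD2 (viperin), a radical enzyme that makes an antiviral nucleotide, had 2 fragments in all, both in CTTN libraries, and SAMD9L, a translation inhibitor, had 1. HERC5, the main ligase for ISG15 in human cells, had 4 fragments, IFI44L had 2 and XAF1, an apoptosis factor, had 3.

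Among these low rows, IFI44 and DDX60 had counts that did not overlap between groups, and neither was tested. Of all tested rows 18.9% were lower in every CTTN library. The share among rows too low to test was not counted, so this is no result about the set. IFI44, a cytoplasmic protein of the response, had no fragment in any CTTN library and scaled counts of 2.1, 1.7 and 1.9 in the Control libraries, 6 fragments in all, and a count of 0 still allows up to 3 fragments. DDX60, a helicase that aids RNA sensing, had 8.3, 6.8 and 0.0 in CTTN and 10.3, 9.6 and 10.5 in Control libraries. That limit covers counting error only.

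The interferons themselves were nearly absent. Of 21 ligand genes (type I, II and III), 19 had no fragment in any library. IFNE, an epithelial type I interferon, had 19 fragments in all 6 libraries and IFNG had 3, so no ligand could be tested. A 0 in one library allows up to 3 fragments there.

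Between CTTN and Control cells, 30 rows, holding 31 of the 44 genes, were tested. UBE2L6 alone passed FDR < 0.05, and it was higher in CTTN cells. Over all 14331 tested rows 598 passed (4.17%), of which 325 were higher (2.27%) and 273 lower (1.9%). The share of 1 in 30 lies near that background and is no result about the set. UBE2L6 also passed the 1.5-fold limit, which 453 rows did (3.16%). The median log2 fold change of the 30 rows was -0.17, against 0.01 over all tested rows, with 9 rows above 0 and 21 below, ranging from -1.17 (TRIM22) to 0.99 (ISG15). TRIM22 and MX2 passed the count limit only through their Control libraries. At an unadjusted p under 0.05 there were 12 of 30, against 30.3% of all rows. DESeq2 called 3 members (ISG15, IRF7 and UBE2L6), against 14.4% of all rows. These 2 shares, 30.3% and 14.4%, are also the background for the same counts in the role groups and lists below. Without CTTN library 2, edgeR called 12 members, 5 higher and 7 lower, against 48.2% of all rows. Counts did not overlap between groups in 13 member rows: 4 of 30 were higher in all CTTN libraries, against 19.8% of all tested rows, and 9 of 30 were lower, against 18.9%.

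**Figure D2:**
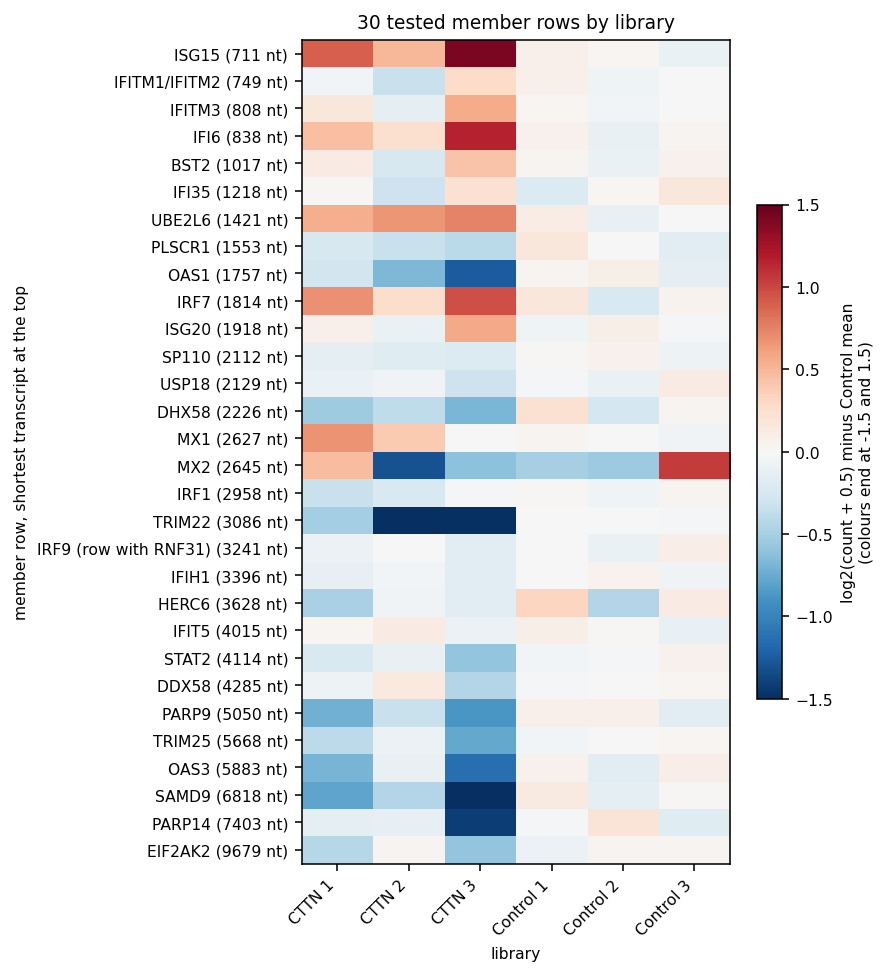
Colours give log2(count + 0.5) minus the mean of the 3 Control libraries for the 30 tested rows, shortest transcript at the top. Short rows such as ISG15 and IFI6 are red and long rows such as SAMD9 and OAS3 are blue mainly in CTTN libraries 1 and 3, while CTTN library 2 is paler in most rows.

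The sign of a member's change went with its transcript length. Of 11 rows under 2000 nt, 7 had a log2 fold change above 0, and of 19 rows of 2000 nt or more, 17 were below 0. Spearman's rho between log2 fold change and length was -0.61 over the 30 rows and -0.57 over all tested rows, which share the same libraries. With library 2 as the only CTTN library, rho was -0.02 over the members and -0.04 over all rows. The length offset called 5 members, against 17.5% of all rows: ISG15 and IRF7 as higher (background 9.3%) and the IFITM1 and IFITM2 row, DHX58 and PLSCR1 as lower (background 8.16%). With library 2 alone the members' log2 fold changes ran from -1.72 (TRIM22) to 0.66 (UBE2L6). In that fit only the Control libraries give a spread, and the single CTTN library is assumed to vary like them. It put 3 members under the threshold, against 15.1% of all rows, and these are not read as changes. The median of the members was below that of all rows in both added fits. It was -0.16 with the length offset, where the median of all rows was 0.01. With library 2 alone it was -0.12, where the median of all rows was -0.0. By library, the members' median deviation from the Control mean was -0.11, -0.11 and -0.19 in CTTN libraries 1, 2 and 3. In Control libraries 1, 2 and 3 it was 0.03, -0.02 and 0.03. The median over all tested rows was 0.02, 0.01 and 0.0 in the CTTN libraries.

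The ISG15 conjugation group held both of the members with the smallest FDR values. ISG15 is a ubiquitin-like protein, UBE2L6 (UBCH8) is the E2 enzyme that carries it, HERC5, HERC6 and TRIM25 act as ligases, and USP18 removes ISG15 and also blocks the type I receptor. Of 5 tested rows, 1 was higher, against 2.27% of all tested rows, none was lower, and the median log2 fold change was -0.16. A single gene is no result about the group.

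UBE2L6 (chromosome 11, 57551662 to 57567935, GRCh38.p14) had counts of 172.1, 186.6 and 197.3 in the CTTN libraries and 127.9, 109.1 and 117.8 in the Control libraries. All CTTN values lay above all Control values, and CTTN library 2, which lacked the length pattern, was in the middle of its group. The log2 fold change was 0.65 ± 0.13 (SE, FDR = 0.0397, edgeR), or 1.56-fold. In bulk RNA, more transcripts per cell and more cells using the gene cannot be told apart. Its FPKM was 3.82 ± 0.257 in CTTN and 2.31 ± 0.128 in Control cells (SD, n = 3). With library 2 alone the log2 fold change was 0.66, and with the length offset it was 0.41 and not called (FDR = 0.0599). The call was lost when CTTN library 1 or any one Control library was left out, with FDR values up to 0.209. It was also lost in both limma fits (FDR = 0.0581 and 0.0655) and with the replicate number as a block (FDR = 0.116).

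By start site, the UBE2L6 counts were split differently in the 2 groups. The start site of transcript ENST00000287156 had estimated counts of 138.1, 133.9 and 160.4 in CTTN and 49.7, 65.0 and 73.1 in Control libraries. The start site of ENST00000340573 had 31.1, 52.7 and 36.9 against 78.2, 44.1 and 44.7. The first start site did not overlap between groups and the second did. The first made up 77.8% of the gene's count in CTTN and 52.9% in Control cells, with a log2 fold change of 1.20 ± 0.26 (SE, unadjusted p = 0.00415, FDR = 0.425, edgeR over 36603 start-site rows). No start site in the whole table passed FDR < 0.05 in that edgeR fit, while 3815 had an unadjusted p under 0.05, and the split of reads between the start sites is an estimate.

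**Figure D3:**
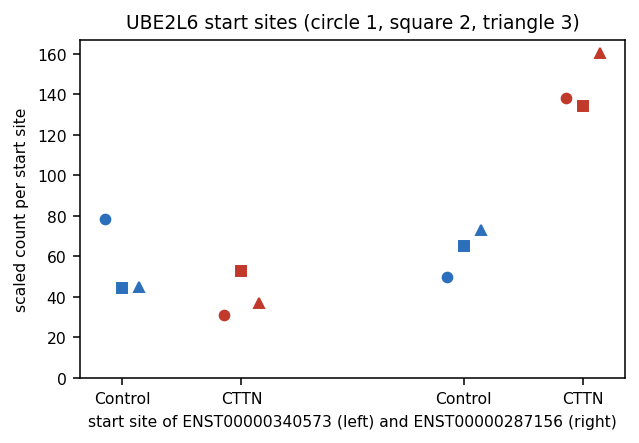
Estimated counts of the UBE2L6 start sites in each library, ENST00000340573 on the left and ENST00000287156 on the right, blue for Control and red for CTTN. The left site spans 31.1 to 78.2 with both groups mixed, and the right site is at 133.9 or more in CTTN and at 73.1 or less in Control cells.

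ISG15 (chromosome 1, 1013497 to 1014540) had the largest positive fold change of the set. Its counts were 303.7, 230.6 and 434.4 in CTTN and 171.3, 165.8 and 151.4 in Control libraries, with no overlap. The log2 fold change was 0.99 ± 0.23 (SE, unadjusted p = 0.00332, FDR = 0.0604, edgeR), which misses the threshold. ISG15 has a short transcript (711 nt), a class whose median log2 fold change was 0.40, and CTTN library 2 was the lowest of its group. With the length offset ISG15 was called, at a log2 fold change of 0.63 (FDR = 0.00583), and with library 2 alone the value was 0.50. DESeq2 gave 0.99 (FDR = 0.00202). Over all alternatives its FDR ran from 0.002 to 0.233.

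The other 3 tested conjugation genes had log2 fold changes below 0 and were not called. TRIM25, the most abundant of them, had counts of 2557.4, 3162.9 and 1969.3 in CTTN and 3267.5, 3372.4 and 3430.6 in Control libraries. Every CTTN value was below every Control value, but library 2 was only a little lower, and the log2 fold change of -0.39 ± 0.16 (SE, FDR = 0.158) became -0.14 with the length offset (FDR = 0.117) and -0.09 with library 2 alone. USP18 had a log2 fold change of -0.16 (FDR = 0.325), -0.27 with the offset and -0.06 with library 2 alone, at 4.51 ± 0.37 FPKM in CTTN and 5.02 ± 0.367 in Control cells (SD, n = 3). HERC6 was at 0.225 FPKM with a log2 fold change of -0.27 (FDR = 0.494), -0.17 with the offset and -0.11 with library 2 alone.

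Among the sensors, which recognise viral RNA in the cytoplasm, none of 3 tested genes was called (edgeR, 1 with an unadjusted p under 0.05, 0 by DESeq2 and by limma). IFIH1 (MDA5), the most abundant, had FPKM of 5.04, 5.26 and 4.89 in CTTN and 5.3, 5.37 and 5.16 in Control libraries. These ranges overlapped and the spread was small, with a log2 fold change of -0.11 ± 0.08 (SE, FDR = 0.372), -0.03 with the length offset and -0.04 with library 2 alone. DDX58 (RIG-I) was at 1.12 FPKM, with a log2 fold change of -0.11 ± 0.16 (FDR = 0.645). Its sign turned with the length offset (0.05), with library 2 alone (0.14) and without CTTN library 3 (0.03). DHX58 (LGP2), which tunes the other two, had counts of 65.3, 72.3 and 58.7 in CTTN and 110.4, 78.6 and 96.8 in Control libraries. These did not overlap, and the log2 fold change was -0.55 ± 0.18 (SE, FDR = 0.113). For DHX58 the length offset gave -0.64 (FDR = 0.0421) and library 2 alone gave -0.41.

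Among 7 transcription regulators none was called by edgeR or limma, and the median log2 fold change was -0.19. In edgeR 2 had an unadjusted p under 0.05, against 30.3% of all rows, and DESeq2 called 1, against 14.4% of all rows. IRF9's row had FPKM of 43.8, 41.5 and 56.1 in CTTN and 46.2, 39.8 and 45.1 in Control libraries, with a log2 fold change of -0.09 ± 0.09 (SE, FDR = 0.483), -0.03 with the length offset and -0.01 with library 2 alone. Summed over IRF9's own transcripts the estimated counts were 324.5, 271.2 and 252.5 in CTTN and 309.7, 232.6 and 230.0 in Control libraries, which overlapped (log2 fold change 0.13 ± 0.16, FDR = 0.589). STAT2 had counts of 1633.7, 1774.4 and 1268.9 in CTTN and 1869.5, 1884.4 and 2004.2 in Control libraries. All CTTN values were lower, but the log2 fold change of -0.30 ± 0.13 (FDR = 0.166) was -0.16 with the length offset (FDR = 0.127) and -0.12 with library 2 alone.

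IRF7, the factor that amplifies type I interferon transcription, had the only row of these regulators with a log2 fold change above 0. Its counts were 334.8, 248.2 and 406.7 in CTTN and 234.2, 177.2 and 214.6 in Control libraries. They did not overlap, though CTTN library 2 was close to Control library 1. The log2 fold change was 0.66 ± 0.20 (SE, FDR = 0.101, edgeR), while DESeq2 and the length offset called it (0.48, FDR = 0.0472 with the offset), and library 2 alone gave 0.25. IRF1 (-0.19, FDR = 0.279), the nuclear body protein SP110 (-0.18, FDR = 0.229) and the ADP-ribosyltransferase family members PARP9 (-0.64, FDR = 0.111) and PARP14 (-0.44, FDR = 0.368) had log2 fold changes below 0. For PARP14, a long transcript, the value was -0.12 with the length offset, -0.13 with library 2 alone and -0.13 without CTTN library 3. IRF1 and SP110 had -0.17 and -0.29 with the offset and -0.24 and -0.18 with library 2 alone. PARP9 had counts of 39.4, 51.8 and 35.5 against 69.1, 69.0 and 58.4, and the lowest Control value was close to the highest CTTN value. Its log2 fold change was -0.42 with the length offset (FDR = 0.129) and -0.33 with library 2 alone.

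Of 13 tested rows of antiviral effectors, none was called by edgeR, 5 had an unadjusted p under 0.05, and DESeq2 and limma called 0. The median log2 fold change was -0.30, and it was -0.34 with the length offset, -0.25 with library 2 alone and -0.13 without CTTN library 2. The most abundant row, IFITM1 and IFITM2, had a log2 fold change of -0.02 ± 0.15 (SE, FDR = 0.946). Short transcripts were shifted up in CTTN libraries 1 and 3, and with the length offset the row was lower (-0.35, FDR = 0.00402). With library 2 alone its log2 fold change was -0.34. Split by gene name, IFITM1 made up 30.7% and IFITM2 69.3% of the row's count, with log2 fold changes of 0.08 and -0.06. IFITM3 and BST2 had 0.22 and 0.13 (FDR = 0.379 and 0.607) with all libraries and -0.15 and -0.25 with library 2 alone. With the length offset these were -0.12 and -0.19 (FDR = 0.163 and 0.118).

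TRIM22, a nuclear antiviral ligase, had the lowest fold change of the set. Its scaled counts were 11.4, 4.9 and 5.5 in CTTN and 16.5, 16.6 and 16.3 in Control libraries. The groups did not overlap, on 73 fragments in all. The log2 fold change was -1.17 ± 0.35 (SE, unadjusted p = 0.0122, FDR = 0.0982), -1.14 with the length offset (FDR = 0.0645) and -1.72 with library 2 alone. Its FPKM values did overlap, at 0.151, 0.108 and 0.0594 in CTTN and 0.116, 0.166 and 0.156 in Control libraries. FPKM also depends on the transcript length that the reads were assigned to.

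The oligoadenylate synthetases, which make the activator of RNase L, were low in both groups. OAS1 had counts of 52.9, 40.1 and 26.6 in CTTN and from 58.4 to 68.1 in Control libraries, without overlap. Its log2 fold change was -0.68 ± 0.26 (SE, FDR = 0.139), and it was -0.85 with the length offset (FDR = 0.06) and again -0.68 with library 2 alone. OAS3 had 215.6, 325.4 and 160.7 against 367.3, 313.3 and 376.5, where library 2 lay within the Control range, and a log2 fold change of -0.59 ± 0.24 (FDR = 0.156). That value became -0.34 with the length offset (FDR = 0.105) and -0.12 with library 2 alone. OAS2 and OASL were among the rows too low to test.

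PLSCR1, a phospholipid scramblase, had counts of 224.9, 210.1 and 200.6 in CTTN and 299.2, 265.3 and 234.7 in Control libraries, without overlap. Its log2 fold change was -0.33 ± 0.13 (SE, FDR = 0.141), it was called with the length offset (-0.54, FDR = 0.0279), and it was -0.35 with library 2 alone. SAMD9, a translation inhibitor, had 37.3, 47.9 and 15.5 against 71.2, 58.5 and 66.1, with a log2 fold change of -0.95 ± 0.35 (FDR = 0.136). For this long transcript (6818 nt) the value was -0.66 with the length offset (FDR = 0.0984) and -0.44 with library 2 alone. It was -0.62 without CTTN library 3, and without CTTN library 2 it was called (-1.30, FDR = 0.0115). EIF2AK2 (PKR), the kinase that stops translation on double-stranded RNA and the longest of the tested transcripts (9679 nt), had a log2 fold change of -0.30 (FDR = 0.226), 0.13 with the length offset (FDR = 0.238) and 0.03 with library 2 alone.

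The remaining effectors overlapped between groups. MX1, a dynamin-like GTPase that traps viral capsids, had counts of 32.1, 26.4 and 19.9 against 20.6, 20.1 and 19.2 and a log2 fold change of 0.37 (FDR = 0.316). MX2 rested on 62 fragments and ranged from 3.9 to 14.5 in CTTN and from 7.0 to 22.0 in Control libraries. Its log2 fold change of -0.46 (FDR = 0.62) was -0.49 with the length offset and -1.56 with library 2 alone, while that of MX1 was 0.35 and 0.37. IFIT5 had a log2 fold change of 0.02 (FDR = 0.907), 0.16 with the offset and 0.13 with library 2 alone. ISG20 had 0.21 (FDR = 0.403), but 0.05 with the offset, -0.10 with library 2 alone and -0.01 without CTTN library 3, which had the highest count of its group (905.4, against 642.7 and 568.7 in libraries 1 and 2).

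SAMD9 differed in which of its transcripts received the reads. Transcript ENST00000620985 took 99.8% of its count in CTTN cells and 1.07% in Control cells, and ENST00000379958 took 0.158% and 98.9%. In single libraries ENST00000379958 had estimated counts of 0.1, 0.0 and 0.1 in CTTN and 69.7, 58.4 and 65.6 in Control libraries. Both transcripts share a start site and are of similar length (6754 and 6852 nt), neither passed in edgeR's fit of 61322 transcript rows (FDR = 0.672 and 0.632), and that fit called 0 rows, with 3875 at an unadjusted p under 0.05. The assignment is an estimate by the quantification program.

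Among members with other roles, 2 were tested and none was called (edgeR, 1 with an unadjusted p under 0.05, 0 by DESeq2 and by limma). IFI6 (838 nt) had counts of 462.3, 398.7 and 755.8 in CTTN and 354.9, 314.2 and 348.7 in Control libraries. There was no overlap, and CTTN library 3 was the highest. The log2 fold change was 0.67 ± 0.24 (SE, FDR = 0.127), 0.31 with the length offset (FDR = 0.0863) and 0.23 with library 2 alone. IFI35, an interferon-induced leucine zipper protein, was at 2.68 ± 0.539 FPKM in CTTN and 2.71 ± 0.356 in Control cells (SD, n = 3), with a log2 fold change of -0.01 (FDR = 0.962), -0.30 with the length offset (FDR = 0.183) and -0.33 with library 2 alone.

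The machinery that feeds these genes was present in both groups. The list of receptors, JAK kinases and STAT proteins had 10 tested rows, of which edgeR called 0 (2 with an unadjusted p under 0.05, 0 by DESeq2 and by limma), and a median log2 fold change of -0.18. With the length offset 2 of the 10 were called as lower, JAK1 and IFNGR1, against 8.16% of all rows, and the median was -0.08. Without CTTN library 2, edgeR called 1 as higher and 5 as lower, where 48.2% of all rows were called. JAK1 had counts of 2872.5, 3464.8 and 2300.7 in CTTN and 3727.6, 3919.7 and 3956.6 in Control libraries, which did not overlap (log2 fold change -0.43 ± 0.14, FDR = 0.119). It was -0.27 with the length offset (FDR = 0.0284) and -0.16 with library 2 alone. The IFNAR1 receptor chain was at 9.73 ± 0.706 FPKM in CTTN and 11.5 ± 0.863 in Control cells (SD, n = 3), with FDR = 0.237. The row of IFNAR2 also held IL10RB, and IFNAR2's own transcripts, 52.1% of it, had a log2 fold change of 0.00. Of the sensing and signalling genes upstream of interferon, such as MAVS, TBK1 and IRF3, edgeR called 0 of 13 (2 with an unadjusted p under 0.05, 0 by DESeq2 and by limma), with a median of -0.05. The length offset called 1 as higher, against 9.3% of all rows, with a median of -0.04, and without CTTN library 2 there were 1 higher and 4 lower, where 48.2% of all rows were called. IFI16, AIM2, ZBP1 and TLR3, which sense DNA or endosomal RNA, were at or below 0.0272 FPKM.

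Negative regulators were also present. Of 10 such genes edgeR called 0 (1 with an unadjusted p under 0.05, 1 by DESeq2, 0 by limma), with a median log2 fold change of -0.03. The length offset called 1 as higher, against 9.3% of all rows, with a median of -0.01, and without CTTN library 2 there were 1 higher and 2 lower, where 48.2% of all rows were called. The gene at that p was SOCS1, an inhibitor of JAK kinases that interferon induces, with counts of 80.9, 84.0 and 125.2 in CTTN and 59.8, 51.5 and 62.3 in Control libraries. They did not overlap, and the log2 fold change was 0.74 ± 0.22 (SE, FDR = 0.0929), 0.46 with the length offset (FDR = 0.0859) and 0.54 with library 2 alone.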

How the data were processed

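Polyadenylated RNA of 6 SKBR3 libraries was sequenced with a stranded library kit. Per the submitters' processing notes, the authors trimmed reads (Trimmomatic), aligned them with STAR and quantified them with Cufflinks, and the deposited loci are on GRCh38, although the methods name another trimmer and an older build. The deposited gene, start-site and transcript counts are estimated counts that the authors divided by a scale for each library. After multiplying back, 100% of nonzero values in low rows were whole within 0.01. The deposited FPKM values are fragments per kilobase of transcript, scaled to library size, as the authors gave them, and the deposited attribute tables (names, lengths, loci) and sample table (scales) hold other values.

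Counts were rounded and tested with edgeR 4.0.16 (quasi-likelihood, TMM, two-sided, Benjamini-Hochberg FDR over all 14331 rows with a mean count of at least 10, threshold 0.05), after the scripts had been tested on simulated data. Replicate libraries were no duplicates. Alternatives used DESeq2 1.42.0, limma 3.58.1 on log2(FPKM + 1) and log2(FPKM + 0.1), other scalings, no filter, a replicate block, and each library left out. A log2 fold change from limma understates that of low genes. Lengths are the count-weighted means of a row's transcripts. The length offset was a spline with 6 degrees of freedom per library. Control libraries are numbered as in the deposited sample table, since the labels number their columns differently.

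Members and lists were chosen with earlier results of these data known. Given with a value in every library were members past the threshold, the most abundant member of each role group, the 2 next smallest p, list genes past the threshold, and ISG15, IRF9 and CTTN. A few genes that this rule or the lists name are not reported here. Other genes with values per library were chosen after their values had been seen. Gene coordinates and promoters are from RefSeq, GRCh38.p14.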

Additional observations from a re-analysis of the deposited data

How the results depend on the processing

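Of the 30 members 1 was called, against 598 genes in the table and 3 genes of the pathway and MHC lists. These counts were 3, 2062 and 13 with DESeq2, 0, 182 and 0 with limma on log2(FPKM + 1), 0, 178 and 0 with log2(FPKM + 0.1), 5, 2503 and 16 with the length offset, and 3, 2160 and 14 with CTTN library 2 alone, where the single library is assumed to vary like the Controls. Without the low-count filter 2 members were called, against 593 genes in the table (2.3%). With a 1.5-fold limit the member count of 1 became 3 with DESeq2, 2 without the filter, 2 with the length offset and 0 in both limma fits. In the edgeR fit with all libraries 453 rows of the table (3.16%) passed that limit. Over all rows it was not counted for any alternative, so the member counts at 1.5-fold have no background there and are not read as results. The replicate block left 0 members, 104 genes and 0 list genes called, or 0 members at 1.5-fold. Same-numbered libraries did not deviate together (r = 0.023, 0.082 and -0.19), so they share only a number. DESeq2 added ISG15 and IRF7 to UBE2L6. The length offset called ISG15 and IRF7 as higher and the IFITM1 and IFITM2 row, DHX58 and PLSCR1 as lower, and it lost UBE2L6.

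Leaving out 1 library gave 0 to 12 members, 0 to 8 members at 1.5-fold, 14 to 6909 genes and 0 to 36 list genes. The highest counts came without CTTN library 2 (48.2% of the table), where 5 members were higher (IFI6, IFITM3, ISG15, IRF7 and UBE2L6) and 7 lower (OAS3, STAT2, DHX58, TRIM25, PARP9, SAMD9 and EIF2AK2). Without CTTN library 3 there were 2 members and 1222 genes. Without CTTN library 1 there were 0 members and 18 genes, and without Control library 1, 2 or 3 there were 0 members and 28, 14 or 16 genes. The members' median log2 fold change of -0.17 was -0.06 with limma on log2(FPKM + 1), -0.12 with library 2 alone and -0.12 to -0.18 with 1 library left out. Wherever a fit called a member, its sign was that of the fit with all libraries. Over single members and alternatives, sums over a member's own transcripts included, 402 values kept their side of the threshold within 1 SE or stayed called, 52 uncalled values moved by more, 22 gained a call and 8 lost one. The causes were not tested. The 13 untested rows had 1 to 47 fragments over all libraries together, and whether more depth would change this was not tested.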

Other observations

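Genes around the set that interferon-gamma also induces were mostly low or not called. Of 5 tested genes of a list of 14 gamma-response genes, 1 was lower in CTTN cells, against 1.9% of all tested rows, and the median log2 fold change was -0.04. DESeq2 called 1 as higher and 2 as lower, where it called 14.4% of all rows. The length offset called 2 as lower, against 8.16% of all rows, and without CTTN library 2 there were 1 higher and 2 lower, where 48.2% of all rows were called. It was the row of GBP2, a guanylate-binding GTPase that attacks pathogen vacuoles, which listed GBP7 too but took 100% of its count from GBP2. The counts were 156.5, 152.4 and 137.4 in CTTN and 265.2, 214.7 and 229.0 in Control libraries, without overlap. The log2 fold change was -0.67 ± 0.13 (SE, FDR = 0.0385, edgeR), -0.76 with the length offset (FDR = 0.00501) and -0.64 with CTTN library 2 alone. CXCL9 and IDO1 had an FPKM of 0 in every library.

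The MHC class I list, which presents peptides and also responds to interferon, had 17 tested rows, of which 1 was higher (HLA-F) and 1 lower (the row of TAP2), against 2.27% and 1.9% of all tested rows, with a median of 0.10. These counts were 3 and 2 with the length offset (9.3% and 8.16% of all rows), 3 and 3 with DESeq2 (14.4% of all rows called), and 5 and 4 without CTTN library 2, where 48.2% of all rows were called. The median of the 17 rows was 0.03 with the length offset, 0.15 without CTTN library 2 and -0.07 with library 2 alone. HLA-F, a nonclassical class I chain, had counts of 24.9, 34.2 and 24.4 in CTTN and 9.3, 9.6 and 5.7 in Control libraries, without overlap. Every Control count was below 10, the limit for the mean over all libraries. HLA-F thus entered the test only through its CTTN counts, and its call is no result about the list. Its log2 fold change was 1.71 ± 0.31 (SE, FDR = 0.0317, edgeR), and it was 1.46 with the length offset (FDR = 0.0305) and 2.01 with library 2 alone. HLA genes are close relatives, so its 107 fragments may include reads of others. TAP2, a subunit of the peptide transporter, shared a row with HLA-DOB, had counts of 2075.3, 2214.1 and 1942.7 against 2647.4, 2723.1 and 2883.6, and a log2 fold change of -0.41 ± 0.08 (SE, FDR = 0.0468). With the length offset TAP2 was at -0.19 (FDR = 0.0922), and with library 2 alone at -0.32. The calls of GBP2, HLA-F and TAP2 were each lost in both limma fits, with the replicate block, without CTTN library 1 and without any one Control library, with FDR values up to 0.163, 0.152 and 0.218. TAP2 was also lost with library totals as the scaling (FDR = 0.0653) and without the low-count filter (FDR = 0.0666).

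Of 31 tested genes in a list of other interferon-induced genes, edgeR called 0, with 7 at an unadjusted p under 0.05, 4 called by DESeq2 and 0 by limma. The median log2 fold change was -0.08. The length offset called 1 as higher and 4 as lower, against 9.3% and 8.16% of all rows, and without CTTN library 2 there were 4 higher and 9 lower, where 48.2% of all rows were called. Of the 31 genes, 12 had a log2 fold change above 0 and 19 below, from -0.58 to 0.52. SP100, a nuclear body protein, is an example chosen after its values had been seen. Its counts were 117.1, 98.7 and 123.0 against 156.8, 171.1 and 174.4 (log2 fold change -0.57, FDR = 0.0618). Of all tested rows, 18.9% were likewise lower in every CTTN library and 19.8% were higher. How many of the 31 did not overlap was not counted. SP100 was called with the length offset (-0.68, FDR = 0.00655), and it was at -0.76 with library 2 alone. IFI30, a lysosomal thiol reductase, was in a row whose count was 1.29% its own, so that row's value is not read as IFI30.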
